A study of Mus musculus with 12 samples.

Results

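The transcripts of 10 genes that restrain NF-kB signalling or protect cells from death while the pathway is active were followed in 3T3-L1 pre-adipocytes, a mouse embryonic fibroblast line that can become fat cells. They are Tnfaip3, Tnip1, Nfkbia, Nfkbib, Nfkbie, Nfkbiz, Bcl3, Traf1, Birc3 and Ier3, and they were found by matching the transcript accession of each array probe to its gene. All 10 had a probe that passed the filter on dim probes (13 probes on the array), out of 13927 genes tested and 20886 named on the array. The cells had been grown with RAW264.7 cells, a mouse macrophage line held in an insert above them, or had been grown alone. Both kinds of culture received cortisol (C, 100 µM), serotonin (S, 100 µM), both hormones (CS) or no treatment (NT), and RNA was taken at 6, 24 and 48 h. Each of the 12 conditions was one dual-colour array, with co-cultured cells in the Cy5 channel and time-matched cells alone in the Cy3 channel, without a dye swap. Medium and hormones were renewed after 24 h, and the hormone stocks were made in DMSO. No condition was repeated, and the arrays of a time point differ in treatment.

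NF-kB is a family of transcription factors held in the cytoplasm by the IkB proteins. Receptors for cytokines such as TNF activate a kinase complex that marks IkB for destruction, and the factors that are set free enter the nucleus and raise transcription of their targets. Among the targets are the pathway's own brakes and genes that keep the responding cell alive, and both groups are known to be induced in fibroblasts and fat cell precursors exposed to macrophage cytokines.

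Between 18443 and 22824 of 39429 probes were well above background in a channel, and no spot was saturated. The fibroblast and pre-adipocyte markers fitted the labelled cells, 11 of 12 being well above background in the co-cultured channel of every array. The hormone labels were set against 12 genes known to be induced by glucocorticoids, of which 6 were called higher with cortisol than with NT in co-cultured cells. The summed level of 9 of them was nonetheless highest in co-cultured cells on the NT array at 48 h (348000 units, against 311000 with C and 315000 with CS at that time). Zbtb16, which separated the treatments, had a log2 level of 10.65 to 11.15 with C or CS and 8.25 to 8.95 with S or NT in co-cultured cells, but went against the labels in cells alone on 3 arrays. There it was 10.66 on the array labelled S at 6 h and 10.53 on that labelled S at 24 h, against 8.49 and 8.71 on the NT arrays of those times, and 9.18 on the array labelled CS at 24 h. The labels of these 3 arrays are used as given, and several of the results that rest on them are also given without them. Macrophage transcripts were higher in the co-cultured channel for 7 of 14 measured markers at 6 h, 2 at 24 h and 6 at 48 h, when 1 was lower. The summed level of the 14 spanned 12500 to 19200 units in co-cultured cells and 7970 to 13800 units in cells alone. Of 20 macrophage markers on the array, 10 were well above background in the co-cultured channel of every array, among them Csf1r, Itgam, Cd14 and Cd53, which were so in cells alone too. Tyrobp was above it on 6 of 12 arrays in co-cultured cells and 0 of 12 in cells alone. Adgre1 was well above background on 3 of 12 arrays in co-cultured cells and 1 of 12 in cells alone, Ptprc and Spi1 on 1 array in each channel, and Msr1 on none. Whether RNA of macrophages contributed to the levels below was not tested. Each time point was hybridised on a slide of its own, so that slide and time cannot be told apart.

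In co-cultured cells 9 of the 10 genes were higher than in cells alone at 6 h, 7 at 24 h and 6 at 48 h. A gene was called when limma's moderated test gave an adjusted p below 0.05 over all genes and the change was at least 1.5-fold. Of all genes tested, 4.37% were called higher at 6 h, 4.66% at 24 h and 14.5% at 48 h. None of the 10 was called lower at any time, where the shares of all genes called lower at 6, 24 and 48 h were 5.23%, 3.68% and 16.7%. The median log2 ratio of co-cultured cells over cells alone was 1.01 over the 10 genes at 6 h, 0.99 at 24 h and 0.85 at 48 h, against medians of -0.02, 0.00 and -0.01 over all genes. By their calls at 48 h and in the change between 6 and 48 h, 5 genes stayed high (Tnfaip3, Tnip1, Nfkbia, Birc3 and Ier3), 3 fell (Nfkbiz, Bcl3 and Traf1) and 2 did neither (Nfkbib and Nfkbie). The classes were read from these same values, so no test set one class against another.

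**Figure D1:**
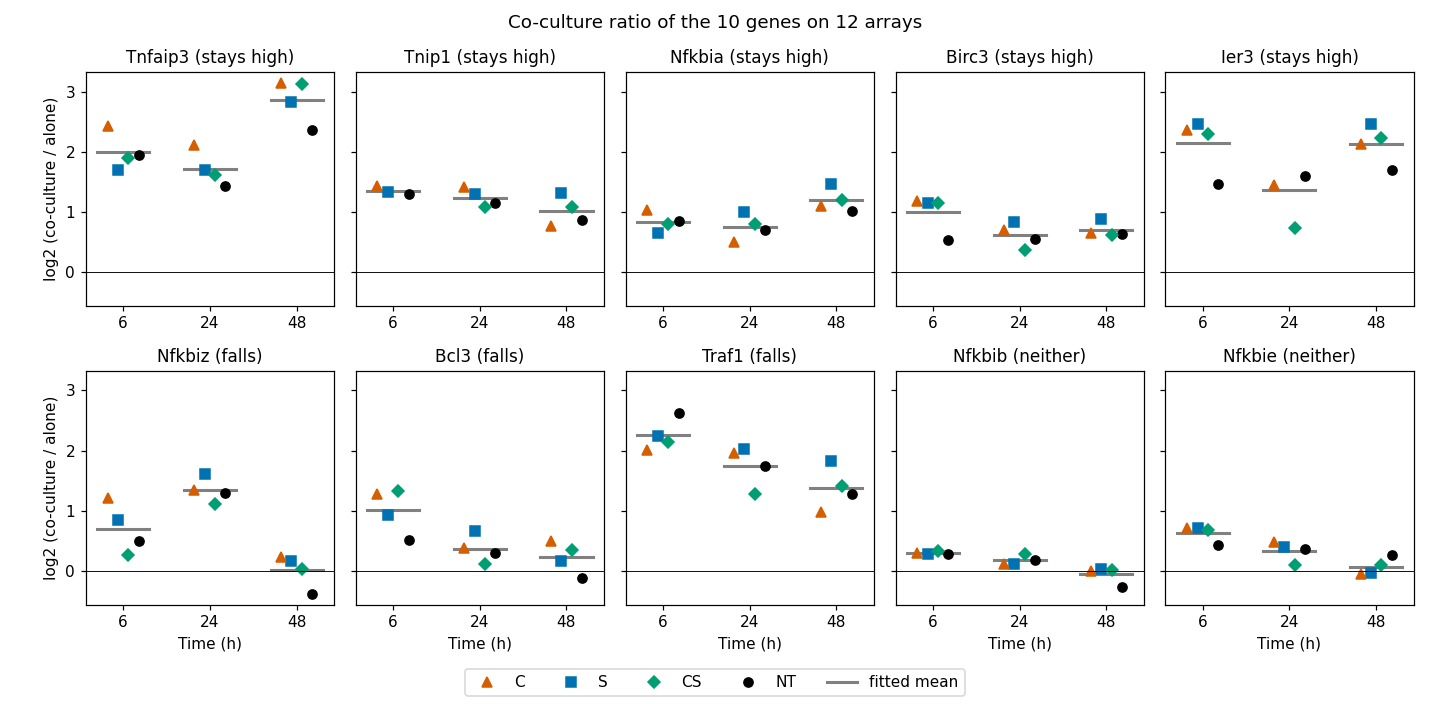
Each point is the log2 ratio of co-cultured cells over cells alone on 1 array, by time in hours and treatment (C, S, CS and NT), and the grey bars are the fitted means of a time. The 5 genes that stayed high lie above 0 on every array at 48 h, and the 48 h points of Nfkbiz lie between -0.38 and 0.24.

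Promoters of both classes were set side by side. The windows hold 250 bases before and 50 bases from the start site, on the GRCm38.p6 build of RefSeq, and 9 of the 10 genes had one. The kB consensus, the sequence bound by NF-kB dimers, was searched on both strands, and overlapping matches were merged in the display. It was present in 6 of the 9 genes (Tnfaip3, Tnip1, Nfkbia, Nfkbie, Bcl3 and Ier3), and in 8.46% of all 32851 windows. By class it was found in 4 of 5 genes that stayed high, in 1 of 2 with a window that fell, and in 1 of 2 that did neither. A match is a run of letters and not evidence of a binding site. The following 4 windows are shown 5′ to 3′ with matches in capitals, the first pair from genes that stayed high and the second from genes that fell. They lie on the minus strand at chr10:19015361-19015660 (Tnfaip3), chr12:55492598-55492897 (Nfkbia), chr7:19822706-19823005 (Bcl3) and chr2:34961723-34962022 (Traf1).
Tnfaip3: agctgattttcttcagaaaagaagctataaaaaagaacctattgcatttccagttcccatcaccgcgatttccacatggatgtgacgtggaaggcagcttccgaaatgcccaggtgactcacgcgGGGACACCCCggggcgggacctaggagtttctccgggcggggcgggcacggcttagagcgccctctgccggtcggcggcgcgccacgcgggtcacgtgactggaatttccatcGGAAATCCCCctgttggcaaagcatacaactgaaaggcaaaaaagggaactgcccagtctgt
Nfkbia: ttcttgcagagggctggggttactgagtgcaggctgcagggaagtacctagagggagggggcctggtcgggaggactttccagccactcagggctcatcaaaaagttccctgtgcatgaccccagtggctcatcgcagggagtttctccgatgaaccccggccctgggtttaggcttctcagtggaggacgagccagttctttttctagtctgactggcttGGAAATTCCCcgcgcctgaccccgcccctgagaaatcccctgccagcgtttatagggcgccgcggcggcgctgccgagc
Bcl3: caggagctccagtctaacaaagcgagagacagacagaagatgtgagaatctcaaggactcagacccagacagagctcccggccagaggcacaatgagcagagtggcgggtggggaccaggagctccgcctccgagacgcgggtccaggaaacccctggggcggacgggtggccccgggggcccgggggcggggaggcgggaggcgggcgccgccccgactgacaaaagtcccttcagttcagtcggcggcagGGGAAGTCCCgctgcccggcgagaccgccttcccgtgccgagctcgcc
Traf1: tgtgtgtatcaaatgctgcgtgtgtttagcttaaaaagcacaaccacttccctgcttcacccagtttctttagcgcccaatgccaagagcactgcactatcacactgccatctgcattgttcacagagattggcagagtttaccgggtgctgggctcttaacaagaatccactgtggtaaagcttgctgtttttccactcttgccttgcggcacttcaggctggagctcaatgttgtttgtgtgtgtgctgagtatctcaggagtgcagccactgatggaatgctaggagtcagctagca
The Traf1 window held no match, and neither did those of Birc3 and Nfkbib or the second Tnfaip3 window. With the start site as base 0, the match of Nfkbia began at -29, that of Bcl3 at 2, and those of Tnfaip3 at -125 and -12.

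Tnfaip3, which encodes the ubiquitin-editing enzyme A20 that shuts off signalling from TNF receptors, had the highest ratio of the 10 genes at 48 h. At 6 h its log2 ratio was 2.42 with C, 1.70 with S, 1.90 with CS and 1.95 with NT. At 24 h it was 2.11, 1.70, 1.61 and 1.44 in the same order of treatments, and at 48 h it was 3.15, 2.83, 3.12 and 2.36. All arrays at 48 h stood above all arrays at 24 h, whereas the NT array at 48 h lay within the range at 6 h. The fitted ratio of Tnfaip3 was 1.99 (SE 0.14) at 6 h, then 1.71 at 24 h and 2.87 at 48 h, equal to 3.98-fold, 3.28-fold and 7.29-fold (adjusted p = 1.33e-05, 1.38e-05 and 3.54e-08). It rose between 24 and 48 h by 1.15 ± 0.20 (adjusted p = 6.7e-04) and between 6 and 48 h by 0.87 ± 0.20 (adjusted p = 0.0035). The change from 6 to 48 h was not called when the arrays were scaled to equal spread (0.34, adjusted p = 0.30) or centred on their medians without loess (0.15, adjusted p = 0.53).

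Ier3, an immediate early gene whose product protects cells from TNF-induced death, was raised at all 3 times. Its log2 ratio at 6 h was 2.36 with C, 2.45 with S, 2.30 with CS and 1.46 with NT. At 24 h it was 1.44 with C, 0.74 with CS and 1.59 with NT, and the spot of the array labelled S was an outlier and was left out. At 48 h it was 2.12 with C, 2.46 with S, 2.23 with CS and 1.70 with NT. The 3 hormone arrays were above the NT array at both 6 and 48 h. Fitted ratios were 2.15 ± 0.18 at 6 h, 1.36 ± 0.22 at 24 h and 2.13 ± 0.18 at 48 h (SE), and the change from 6 to 48 h was -0.01 ± 0.25. The rise from 24 to 48 h, 0.77 ± 0.28, passed the test narrowly (adjusted p = 0.044). Without the array labelled CS at 24 h it was 0.39 (adjusted p = 0.25), and the call was lost in 9 of 12 fits that left out 1 array, all but those without NT at 6 h, NT at 24 h or S at 24 h.

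Nfkbia encodes IkB alpha, the inhibitor that NF-kB resynthesises first after its release. On the 12 arrays its log2 ratio lay between 0.51 and 1.47. It was 1.03 (C), 0.65 (S), 0.80 (CS) and 0.85 (NT) at 6 h, and 1.11 (C), 1.47 (S), 1.21 (CS) and 1.01 (NT) at 48 h. The fitted ratios were 1.78-fold at 6 h, 1.68-fold at 24 h and 2.30-fold at 48 h (adjusted p = 6.69e-05, 1.26e-04 and 6.46e-07). The difference of 0.37 ± 0.13 between 48 and 6 h had an adjusted p of 0.037 but was below 1.5-fold.

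Tnip1, whose product ABIN-1 binds ubiquitin chains together with A20, and Birc3, which encodes the ubiquitin ligase and death inhibitor cIAP2, were called higher at all 3 times. Tnip1 lay between 1.31 and 1.43 on the 3 arrays measured at 6 h, the array labelled CS being left out as an outlier. It was 0.77 (C), 1.32 (S), 1.09 (CS) and 0.87 (NT) at 48 h. Its fitted ratio was 1.34 ± 0.12 at 6 h, 1.24 ± 0.09 at 24 h and 1.01 ± 0.09 at 48 h. Another, dimmer Tnip1 probe had a lower fitted ratio at 48 h (0.50), after 1.13 at 6 h and 0.92 at 24 h. By that probe Tnip1 was not called at 48 h and fell by 0.62 between 6 and 48 h (adjusted p = 4.7e-04), so its class depends on the probe. It also fell with arrays scaled to equal spread (-0.59, adjusted p = 0.017) or centred without loess (-0.96, adjusted p = 0.0018). Birc3 was 1.19 (C), 1.16 (S), 1.15 (CS) and 0.54 (NT) at 6 h, and 0.65 (C), 0.89 (S), 0.61 (CS) and 0.63 (NT) at 48 h. The NT array at 6 h stood apart from the 3 hormone arrays of that time. Fitted ratios of Birc3 were 2.01-fold at 6 h, 1.53-fold at 24 h and 1.62-fold at 48 h, the last of which had an adjusted p of 2.22e-05. The change of Birc3 between 6 and 48 h was -0.31 ± 0.12 (adjusted p = 0.0485), under 1.5-fold. Birc3 fell with arrays centred without loess, and did neither at a 2-fold threshold. At 24 h the Birc3 call was lost without the NT array of that time (0.55, adjusted p = 0.0028, under 1.5-fold).

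Traf1, an adaptor of the TNF receptor family that is itself induced by NF-kB, fell and yet was still raised at 48 h. Its log2 ratio was 2.01 (C), 2.25 (S), 2.15 (CS) and 2.63 (NT) at 6 h. It was 1.97 (C), 2.03 (S), 1.28 (CS) and 1.74 (NT) at 24 h, and 0.97 (C), 1.83 (S), 1.42 (CS) and 1.27 (NT) at 48 h. No array at 48 h reached the lowest value at 6 h. The fitted ratio was 4.78-fold at 6 h, 3.37-fold at 24 h and 2.59-fold at 48 h (adjusted p = 9.74e-06, 1.39e-05 and 6.74e-06). Between 6 and 48 h it fell by 0.88 on the log2 scale (SE 0.21, adjusted p = 0.0039).

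Bcl3 encodes an IkB protein of the nucleus that binds the p50 and p52 subunits. At 6 h its log2 ratio was 1.28 (C), 0.93 (S), 1.33 (CS) and 0.51 (NT), and at 24 h it was 0.39 (C), 0.67 (S), 0.12 (CS) and 0.30 (NT). At 48 h it was 0.50 (C), 0.17 (S), 0.35 (CS) and -0.11 (NT). The values at 48 h were all below those at 6 h, the nearest pair being C at 48 h and NT at 6 h. Co-culture raised it 2.02-fold at 6 h (adjusted p = 4.63e-05), against 1.29-fold at 24 h and 1.17-fold at 48 h, which were not called. It fell by 0.64 between 6 and 24 h (SE 0.15, adjusted p = 0.027) and by 0.78 between 6 and 48 h (SE 0.15, adjusted p = 0.0011). The first fall was not called without the 3 arrays of doubtful label (-0.60, adjusted p = 0.23), and the second was (-0.79, adjusted p = 0.0029). The first was also lost without any 1 of the arrays S, C or CS at 6 h and C or CS at 24 h (-0.71 to -0.49).

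Nfkbiz encodes IkB zeta, another nuclear member of the family, which is needed for secondary targets such as Il6. It peaked at 24 h, when its log2 ratio was 1.35 (C), 1.61 (S), 1.12 (CS) and 1.29 (NT). At 6 h it was 1.22 (C), 0.85 (S), 0.27 (CS) and 0.50 (NT), and at 48 h 0.24 (C), 0.17 (S), 0.04 (CS) and -0.38 (NT). All arrays at 24 h were above all arrays at 48 h, and 3 of them were above all arrays at 6 h. The ratio fell by 1.32 between 24 and 48 h (SE 0.14, adjusted p = 2.47e-05) and by 0.69 between 6 and 48 h (SE 0.14, adjusted p = 0.0015). Its rise of 0.63 ± 0.14 between 6 and 24 h (adjusted p = 0.022) was not called without the 3 arrays of doubtful label (0.58, adjusted p = 0.32), or without any 1 of the arrays S or CS at 6 h and S or NT at 24 h (0.52 to 0.61). Without the C array at 6 h the change from 6 to 48 h was -0.56 (adjusted p = 0.0058) and the ratio at 6 h was 0.58 (adjusted p = 0.0026), both just under 1.5-fold.

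The cytoplasmic inhibitors Nfkbib (IkB beta) and Nfkbie (IkB epsilon) had the lowest ratios of the 10 genes at 6 h. The log2 ratio of Nfkbib was between 0.28 and 0.33 on the 4 arrays at 6 h, between 0.12 and 0.28 at 24 h, and between -0.27 and 0.03 at 48 h. It was not called at any time, although its fitted ratio of 1.23-fold at 6 h had an adjusted p of 0.0010. Its 2 other probes were not called either. Nfkbie was raised 1.56-fold at 6 h (adjusted p = 1.07e-04), when it was 0.72 (C), 0.72 (S), 0.68 (CS) and 0.44 (NT). At 48 h it was -0.04 (C), -0.04 (S), 0.10 (CS) and 0.27 (NT). Its change of -0.57 ± 0.11 between 6 and 48 h (adjusted p = 0.0014) was just under 1.5-fold, where Nfkbiz with -0.69 was just over it, and it was called without CS at 48 h (-0.61), NT at 48 h (-0.66) or NT at 6 h (-0.68). Without the 3 arrays of doubtful label the ratio of Nfkbie at 6 h was 0.58 (adjusted p = 0.0046), under 1.5-fold. Nfkbie was dim. It was well above background on 11 of 12 arrays in co-cultured cells and 9 of 12 in cells alone, and on none of the NT arrays in cells alone.

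Some of the 10 genes were called for a change of the ratio with time. Between 6 and 24 h, 1 gene rose and 1 fell, where 1.68% of all genes rose and 0.661% fell. Between 24 and 48 h, 2 rose and 1 fell, where 9.32% rose and 11.6% fell. Between 6 and 48 h, 1 rose and 3 fell, where 11.9% rose and 12.2% fell. Both calls from 6 to 24 h were lost without the 3 arrays of doubtful label, while the 4 from 6 to 48 h were kept (Tnfaip3 0.79 with an adjusted p of 0.048, Nfkbiz -0.69, Bcl3 -0.79 and Traf1 -1.04).

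The channels were then read singly, as the log2 normalised intensity of a gene's own probe, to see in which culture each ratio moved. In bulk RNA, fewer cells of a type and less RNA per cell cannot be told apart. Between 6 and 48 h co-cultured cells had 2 of the 10 genes called higher and 2 called lower, where 13.5% of all genes were higher and 15.1% lower. Cells alone had 2 called higher and none called lower (5 had an unadjusted p below 0.05 in limma), where 6.74% of all genes were higher and 6.87% lower.

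Tnfaip3 moved in co-cultured cells. Its level there was 14.26 (C), 13.78 (S), 14.32 (CS) and 13.76 (NT) at 6 h, and 14.78 (C), 14.54 (S), 14.86 (CS) and 14.30 (NT) at 48 h. In cells alone it was 11.84 (C), 12.08 (S), 12.42 (CS) and 11.80 (NT) at 6 h, and 11.63 (C), 11.71 (S), 11.73 (CS) and 11.94 (NT) at 48 h. In every treatment the normalised co-cultured level was higher at 48 h than at 6 h. The spot signal before correction was lower at 48 h in every treatment (with NT 12728, against 22049 at 6 h). The times are on different slides, so the rise rests on the normalisation between arrays. The rise in co-cultured cells was 0.59 ± 0.12 (adjusted p = 0.0015), and the difference in cells alone was -0.28 ± 0.14 (adjusted p = 0.14). The rise was barely past 1.5-fold, being 0.39 after quantile normalisation of all channels, which left it uncalled, and 0.53 to 0.57 without any 1 of the arrays NT or S at 6 h and S or CS at 48 h.

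Ier3 rose in both cultures, and its ratio at 48 h was close to that at 6 h. Its mean level was 13.26 ± 0.24 at 6 h and 14.53 ± 0.30 at 48 h in co-cultured cells, and 11.12 ± 0.33 and 12.40 ± 0.25 in cells alone (SD, n = 4). The groups of 6 and 48 h did not overlap in either channel of these normalised levels. Before correction, the spot signal in co-cultured cells was lower at 48 h with C (14704, against 15404 at 6 h) and CS (13513, against 18583). It was higher at 48 h with S and NT, and in cells alone in every treatment. The rise in co-cultured cells thus rests in part on the normalisation between arrays. The rise was 1.26 ± 0.16 in co-cultured cells (adjusted p = 1.69e-04) and 1.28 ± 0.28 in cells alone (adjusted p = 0.0084). In cells alone the array labelled CS at 24 h stood at 13.02, above every other array.

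Traf1 and Nfkbiz fell in co-cultured cells. Bcl3, whose ratio also fell between 6 and 48 h, was not called in either channel. Its level differed by -0.38 ± 0.08 in co-cultured cells (adjusted p = 0.0018) and by 0.40 ± 0.18 in cells alone (adjusted p = 0.105). Traf1 had levels of 11.44 (C), 11.84 (S), 11.58 (CS) and 11.89 (NT) at 6 h and 10.41 (C), 11.76 (S), 10.79 (CS) and 10.69 (NT) at 48 h in co-cultured cells, so that S at 48 h alone was within the range at 6 h. In cells alone the means were 9.43 ± 0.13 at 6 h and 9.54 ± 0.26 at 48 h. The fall of Traf1 in co-cultured cells was 0.77 (change -0.77 ± 0.19, adjusted p = 0.0060). Nfkbiz averaged 10.36 ± 0.26 at 6 h and 9.30 ± 0.19 at 48 h in co-cultured cells (change -1.06 ± 0.14, adjusted p = 1.10e-04), with no overlap between the times. In cells alone its mean was 9.65 ± 0.41 at 6 h, was lowest at 24 h (8.77 ± 0.25) and was 9.28 ± 0.15 at 48 h (SD, n = 4).

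Between 6 and 24 h the calls were in cells alone. There Nfkbiz fell by 0.88 (SE 0.12, adjusted p = 8.64e-04) and Bcl3 rose by 0.72 ± 0.18 (adjusted p = 0.014), where 5.5% of all genes were called higher and 5.55% lower. The Bcl3 call was lost without the array labelled CS at 24 h (0.54, adjusted p = 0.038) or the C array of that time (0.64, adjusted p = 0.052). The arrays of doubtful label are all at 6 or 24 h, and neither change is given here without all of them. In co-cultured cells none of the 10 genes was called by limma between these times (2 had an unadjusted p below 0.05), where 5.28% of all genes were higher and 3.58% lower. Bcl3 in co-cultured cells averaged 14.77 ± 0.08 at 6 h and 14.85 ± 0.12 at 24 h. In cells alone it averaged 13.76 ± 0.35 at 6 h and 14.48 ± 0.34 at 24 h (SD, n = 4).

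Tnip1 was the other gene called in cells alone between 6 and 48 h. By its brighter probe it rose by 0.61 ± 0.15 there (adjusted p = 0.013), and by the dimmer one the difference was 0.28 (adjusted p = 0.052). The call was lost without C at 48 h (0.46, adjusted p = 0.043) or NT at 6 h (0.54, adjusted p = 0.054). Nfkbia differed by 0.10 ± 0.08 in co-cultured cells and -0.27 ± 0.11 in cells alone, and neither was called. Birc3 differed by -0.20 ± 0.12 in co-cultured cells and 0.11 ± 0.15 in cells alone. Nfkbib in co-cultured cells was 0.51 lower at 48 h (change -0.51 ± 0.08, adjusted p = 3.84e-04), under 1.5-fold.

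**Figure D2:**
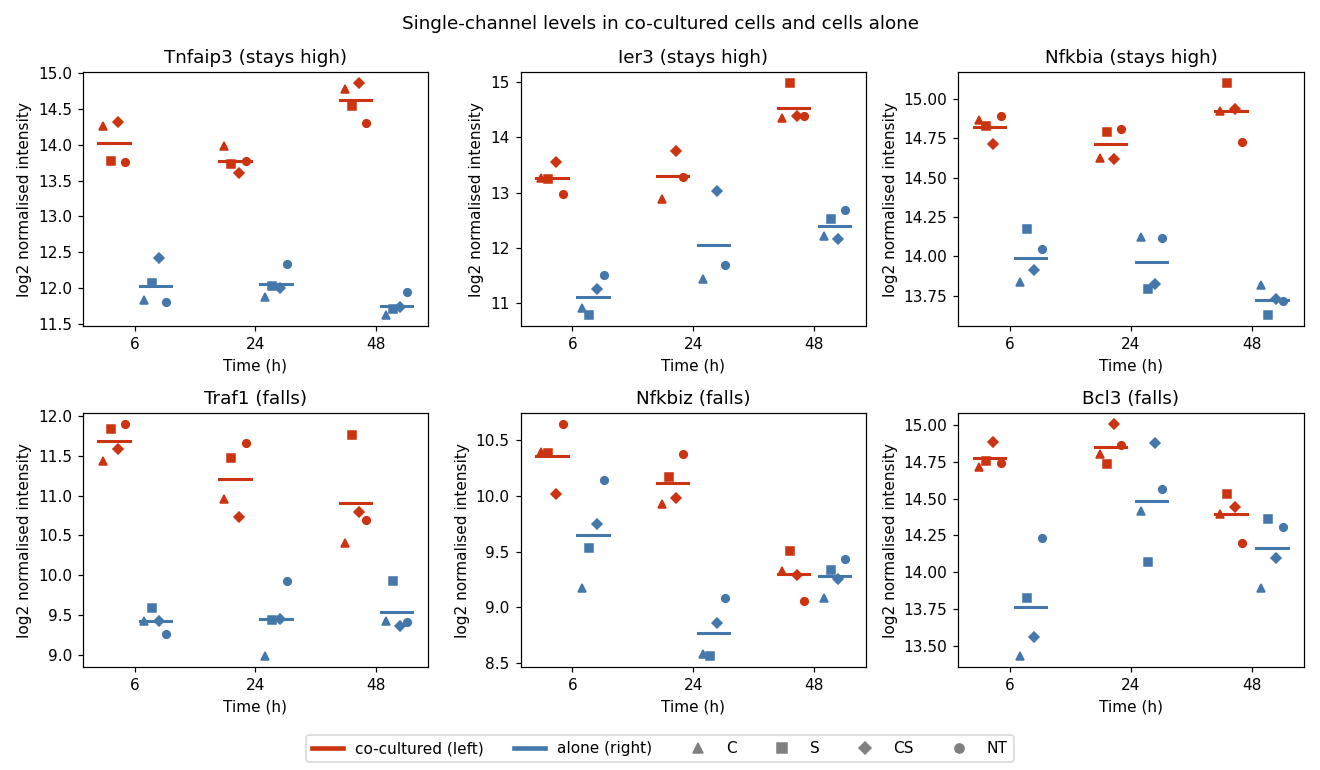
Points are the log2 normalised intensity of 6 genes on each array, by time in hours, with co-cultured cells on the left and cells alone on the right of each time, and lines are the means of the arrays. The scales differ between panels. Ier3 is higher at 48 h than at 6 h in both cultures, and Traf1 differs with time in co-cultured cells, where the arrays lie between 10.41 and 11.89.

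**Figure D3:**
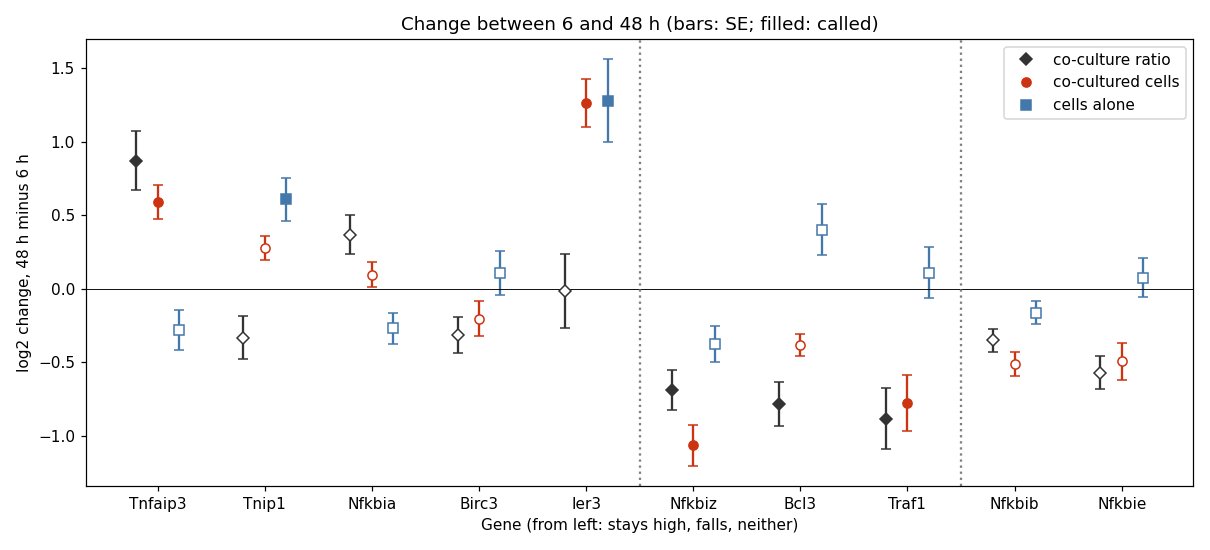
Change in log2 units between 6 and 48 h for each gene, in the co-culture ratio, in co-cultured cells and in cells alone, with standard errors as bars and filled symbols for called changes. Nfkbiz (-1.06) and Traf1 (-0.77) are called in co-cultured cells, and Ier3 in both cultures.

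The hormones were compared with NT over the 3 times, each with 3 arrays. In the co-culture ratio none of the 10 genes was called for cortisol, serotonin or both, where 0% of all genes were called in each. At an unadjusted p below 0.05, limma gave 3 of the 10 for cortisol, 2 for serotonin and 0 for both, where 9.82%, 13.1% and 9.21% of all genes had such a p. With cortisol these were Tnfaip3 (0.65 ± 0.23 above NT), Nfkbiz (0.47 ± 0.16) and Bcl3 (0.49 ± 0.17), each with an adjusted p of at least 0.44. In each of the 3 times, the ratios of Tnfaip3, Nfkbiz and Bcl3 were higher on the C array than on the NT array. For Nfkbiz at 24 h the difference was small (1.35 against 1.29). Read singly, the level with cortisol differed from NT by -0.14 (Nfkbiz), 0.03 (Bcl3) and 0.40 (Tnfaip3) in co-cultured cells. In cells alone it differed by -0.61, -0.46 and -0.25 in the same order, and none of these differences was called.

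In the single channels Nfkbie was the gene that was called. In co-cultured cells its level was 7.94 (C), 7.89 (S), 7.89 (CS) and 6.98 (NT) at 6 h, 7.88 (C), 7.45 (S), 8.01 (CS) and 7.32 (NT) at 24 h, and 7.28 (C), 7.07 (S), 7.63 (CS) and 6.75 (NT) at 48 h. The NT array was the lowest of each time in these normalised levels. The spot signals before correction did not show this at 6 h, being 271 (C), 257 (S), 241 (CS) and 269 (NT). Nfkbie was 0.68 ± 0.15 higher with cortisol (adjusted p = 0.042) and 0.83 ± 0.15 higher with both hormones (adjusted p = 0.013) than with NT, where 1.88% and 3.55% of all genes were called in either direction. In cells alone it was 0.90 ± 0.15 higher with both hormones (adjusted p = 0.025, 1.29% of all genes called) and 0.65 ± 0.15 higher with cortisol (adjusted p = 0.094, 0.172% of all genes called). Without the 3 arrays of doubtful label none of these was called (adjusted p = 0.12 for each). The cortisol call was lost in 9 of 12 fits without 1 array, that of both hormones in cells alone in 6 and in co-cultured cells in 1 (CS at 24 h, adjusted p = 0.059), and the probe was not well above background on the NT arrays of cells alone. Serotonin gave no call in limma among the 10 genes in either channel (1 with an unadjusted p below 0.05 in co-cultured cells and 2 in cells alone), and 0% of all genes were called.

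The rest of the pathway was read from fixed lists. Of 4 measured NF-kB subunits, Relb, a subunit of the non-canonical arm, had a higher ratio at 6 h (0.68). Rela (0.79) and Nfkb1 (0.65), which form the classical dimer, had a higher ratio at 48 h. Between 6 and 48 h the level of Rela differed by -0.03 in co-cultured cells and -0.51 in cells alone. That of Nfkb1 differed by 0.40 and 0.13, and none of these changes was called. Of 19 receptors, adaptors and kinases, 2 were higher at 6 h, 1 at 24 h and 2 at 48 h, and none was lower. The shares of all genes called higher at these times were 4.37%, 4.66% and 14.5%, and those called lower were 5.23%, 3.68% and 16.7%. Whether the counts of the 19 genes or of the 4 subunits differ from these shares was not tested. Traf3, an adaptor that limits non-canonical signalling, was 0.64 at 6 h and 1.03 at 48 h. Traf6, an adaptor of Toll-like receptors, was 0.90 at 6 h and 0.70 at 24 h, and Tnfrsf1b, TNF receptor 2, was 1.07 at 48 h. The median log2 ratio of this list was 0.07 at 6 h and -0.08 at 48 h.

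Of 15 other negative regulators, 2 were higher at 6 h, 2 at 24 h and 1 at 48 h, when 2 were lower. At 6 and 24 h the counts equal 13.3% each, where 4.37% and 4.66% of all genes were called higher. The counts at 48 h equal 6.67% higher and 13.3% lower, where 14.5% and 16.7% of all genes were called. Dusp1, a phosphatase of MAP kinases, was higher at all 3 times (1.30 at 6 h, 1.07 at 24 h and 0.93 at 48 h). Tnip3, a relative of Tnip1, was 1.21 at 6 h and 0.90 at 24 h and fell by 1.15 between 6 and 48 h. Rnf11 (-0.96) and Commd1 (-0.91) were lower at 48 h. These 2 encode a partner of A20 and a factor that promotes RelA turnover. The difference in call rate between the lists was not tested.

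Other survival genes had no call at 6 or 24 h, and 3 of 10 were higher and 1 lower at 48 h, where 14.5% of all genes were higher and 16.7% lower. Gadd45b, a stress gene that blocks JNK signalling, was 0.74, Bcl2a1d, a relative of Bcl2, was 0.70, and Plk2 was 0.67. Birc2, which encodes cIAP1, the close relative of the Birc3 product, was lower (-0.70). Birc2 and Birc3 thus had calls of opposite sign at 48 h.

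Of 16 NF-kB-induced cytokines, chemokines and adhesion molecules, 10 were called higher at 6 h, 6 at 24 h and 4 at 48 h. Of all genes, 4.37%, 4.66% and 14.5% were called higher at these times. Among the 16, 2 were lower at 24 h and 3 at 48 h, where 3.68% and 16.7% of all genes were lower. The median log2 ratio of the 16 was 1.07 at 6 h, 0.47 at 24 h and 0.27 at 48 h. Between 6 and 48 h, the ratio fell for 7 of the 16 and rose for none, where 12.2% of all genes fell and 11.9% rose. Among the 7 were Vcam1 (-2.08), Cxcl5 (-1.79), Cxcl1 (-1.48) and Cxcl10 (-1.45). Of the 7, Vcam1 (0.08), Cxcl10 (0.07) and Ccl7 (0.26) were not called higher at 6 h. They were the 3 called lower at 48 h (-1.998, -1.375 and -0.7399 in that order). The rest of the 7 were called higher at 6 h and were not called at 48 h. The level of Vcam1 fell in co-cultured cells (-1.71), and that of Cxcl1 fell in co-cultured cells (-0.69) and rose in cells alone (0.79). For Cxcl5 and Cxcl10 the level rose in cells alone (1.68 and 1.497) and differed by -0.11 and 0.05 in co-cultured cells, where neither was called. Csf3, the granulocyte growth factor G-CSF, was raised at 6 h (1.92), 24 h (1.69) and 48 h (2.26). Il1a, a proinflammatory cytokine, was raised at 6 h (1.95), 24 h (1.49) and 48 h (1.65). Lif (1.44) and Cxcl2 (0.93) were the other genes called higher at 48 h, and Lif was also called at 6 h (1.55) and 24 h (1.33).

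**Figure D4:**
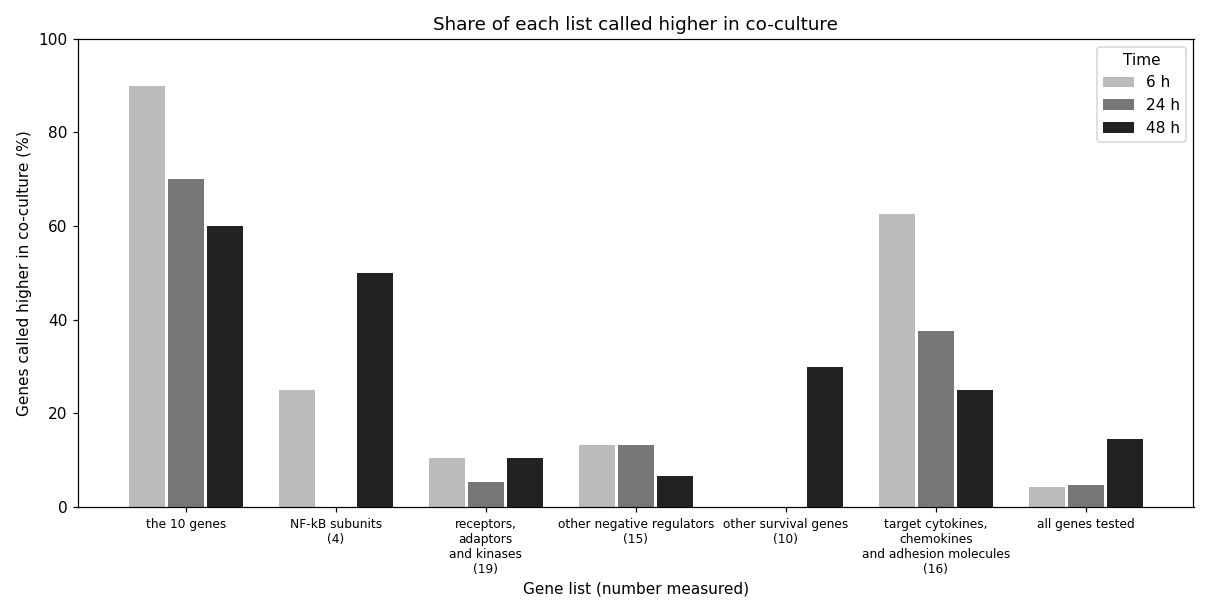
Percentage of the measured genes of each list called higher in co-cultured cells over cells alone at 6, 24 and 48 h, with the number measured in brackets and all genes tested on the right. The 10 genes were called in 90%, 70% and 60%, and the cytokines, chemokines and adhesion molecules in 62.5%, 37.5% and 25%.

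Likeness was measured as Pearson's r over the 12 log ratios, among 12387 named genes with a value on every array, as a description. The 12 points share slides and cultures. The genes most like Tnfaip3 were Tex45 (r = 0.95), Sptlc2 (0.95), Sdcbp2 (0.94), Noct (0.94) and Fbxo3 (0.94). Of these Noct, which encodes the circadian protein nocturnin, had log2 ratios at 6, 24 and 48 h of 0.91, 0.86 and 1.87. Those of Tex45 were 0.05, -0.10 and 0.525, and those of Sptlc2 -0.13, -0.26 and 0.28. Sdcbp2 had 0.51, 0.06 and 1.35, and Fbxo3 0.12, -0.04 and 0.83. A high r thus did not mean ratios of like size. The genes most like Traf1 were Gpr137b-ps (0.93), Ccl9 (0.92), Dgat2 (0.91), Ppbp (0.91) and H2-M10.1 (0.90). Dgat2, an enzyme of triglyceride synthesis, had log2 ratios at the same times of 0.97, 0.32 and 0.09. The others were below 0 at 48 h. Gpr137b-ps had 0.15, -0.175 and -0.37, and Ccl9 -0.21, -0.56 and -0.60. Ppbp had 0.29, -0.01 and -0.33, and H2-M10.1 0.18, -0.15 and -0.68. Among the 10 genes, Tnip1 and Traf1 were most alike (r = 0.84), followed by Bcl3 and Birc3 (0.82), and Tnfaip3 and Nfkbiz were least alike (-0.62).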

How the data were processed

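RNA of 3T3-L1 cells was measured on 12 dual-colour Agilent arrays, 1 per condition. Spot values come from the authors' run of Feature Extraction (Agilent). Its version reads 10.7.3.1 in the headers but 10.5.1.1 in the submitters' notes. Deposited files give spot and local background intensity values in both channels and the processed intensity. They also hold the authors' log10 ratio of Cy5 over Cy3, which the deposited value table repeats to within 0.005, and spot flags.

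Median signals were background-corrected (normexp, offset 50) and loess-normalised within arrays in limma 3.58.1 (R 4.3.3). Outlier spots and spots with a local background over 5 times the array median were left out. Probes that 3 or more arrays flagged as well above background, whichever the channel, were kept, and each gene took its brightest probe. A total of 27508 of 39429 probes were named through RefSeq accessions. The model held time and treatment, and left 6 residual degrees of freedom. Its 4 arrays per time differ in treatment, so that p-values measure the spread between arrays of unlike treatment after additive effects were removed. A call needed a Benjamini-Hochberg adjusted p below 0.05 over all genes and 1.5-fold. Single channels were normalised with Aquantile. The number of arrays limits the precision. The fit was tested on simulated data. Alternatives covered background correction, normalisation, the probe filter, the choice of probe, the model, the fold threshold and leaving out arrays.

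All 10 genes were named, with up to 4 called genes of largest change from each pathway list and 5 genes most like Tnfaip3 and Traf1. In the list of cytokines, chemokines and adhesion molecules, Ccl7, Csf3, Il1a, Lif and Cxcl2 were named beyond that limit. The genes and lists were chosen with earlier results of these data known. A gene stayed high if called higher at 48 h and not lower between 6 and 48 h, and fell if called higher at 6 h and lower between 6 and 48 h.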

Additional observations from a re-analysis of the deposited data

Results flagged for a closer look

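Among 28 sets of 4 arrays of 1 time, 5 values lay far from the other 3 arrays. For like replicates chance gives about 1 in 20 sets. The arrays of a set differ in treatment, so this rate does not hold for them. Several sets also share an array. The log2 ratio of Ier3 on the NT array at 6 h was 1.46, against 2.30 to 2.45 on the hormone arrays, that of Birc3 on the same array was 0.54, against 1.15 to 1.19, and that of Nfkbie was 0.44, against 0.68 to 0.72. Nfkbib on the NT array at 48 h was -0.27, against 0.01 to 0.03, and Birc3 on the S array at 48 h was 0.89, against 0.61 to 0.65. Of the 5 values, 4 were on NT arrays and were the lowest of their time.

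The co-culture ratio differed between times by limma's test for Nfkbiz (0.63 from 6 to 24 h, -1.32 from 24 to 48 h and -0.69 from 6 to 48 h), Bcl3 (-0.64 from 6 to 24 h and -0.78 from 6 to 48 h) and Tnfaip3 (1.15 from 24 to 48 h and 0.87 from 6 to 48 h). It also differed for Ier3 (0.77 from 24 to 48 h) and Traf1 (-0.88 from 6 to 48 h).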

How the results depend on the processing

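Tnfaip3, Nfkbia and Ier3 stayed high in all 27 fits that gave the classes. Birc3 did so in 25 and Tnip1 in 24, falling in the other 3. Traf1 and Bcl3 fell in 26 of 27 and Nfkbiz in 25, while Nfkbie fell in 9. At 2-fold no gene fell (0), and the counts of called genes were 0 for the ratio from 6 to 24 h and from 6 to 48 h. They were then 2 (co-cultured cells) and 1 (cells alone) from 6 to 48 h, 0 from 6 to 24 h in cells alone, and 0 for the 3 hormone calls of Nfkbie. Median centring without loess moved the medians of all genes at 6, 24 and 48 h to 0.23, 0.39 and -0.15. The share of calls that were higher was then 93.9%, 97.7% and 30.5%, against 45.5%, 55.9% and 46.4%. For the changes from 6 to 24 h, 24 to 48 h and 6 to 48 h it was 93.3%, 3.91% and 6.89%, against 71.8%, 44.6% and 49.4%. Under it 3 genes stayed high and 7 fell, with 1 call from 6 to 24 h, 5 from 24 to 48 h and 7 from 6 to 48 h, where the median of all genes moved by -0.47, and Ier3 changed sign from 24 to 48 h (-0.0793). With arrays scaled to equal spread 5 fell. From 6 to 24 h the ratio had 0 calls with the deposited ratios, with processed signals and without the 3 arrays of doubtful label, and 1 with time alone in the model. The deposited ratios raised the higher share at 24 h to 66.4%. The Nfkbie calls were 0 of 3 without the 3 arrays and when probes had to pass on all 12 arrays, which removes Nfkbie. Its cortisol call was 0 with no filter, and its call with both hormones in cells alone was 0 with array weights. In cells alone 1 gene was called from 6 to 48 h with the mean of a gene's probes or, chosen after seeing the data, the other Tnip1 probe. The cause of these changes was not tested. Leaving out 1 array gave 8 to 9 called genes at 6 h, 6 to 7 at 24 h, 6 at 48 h, 0 to 2 from 6 to 24 h, 2 to 3 from 24 to 48 h and 3 to 5 from 6 to 48 h. It gave 0 to 1 from 6 to 24 h (Traf1 without NT at 24 h, -0.63) and 3 to 4 from 6 to 48 h in co-cultured cells, and 1 to 3 and 1 to 2 in cells alone. Each Nfkbie call ranged from 0 to 1, and 5 genes stayed high and 2 to 4 fell. Ier3 was called lower from 6 to 24 h in the ratio without NT at 24 h (-1.17), and higher in cells alone without that array (1.24) or CS at 48 h (0.86). Mean spot signals were not run, since no such column was used here. No paired analysis was possible by replicate number because each condition had 1 array, but each ratio sets both cultures of an array against each other and the model compares times within treatments. The loess fit sets the median of each array to about 0, so that a shift shared by most genes is not measured.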
